A study of Homo sapiens with 13 samples.

Results

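CEM RES cells are a subline of the human T cell acute lymphoblastic leukemia line CCRF-CEM that was grown in rising concentrations of FK866 until it tolerated the drug. FK866 inhibits nicotinamide phosphoribosyltransferase (NAMPT), the enzyme that starts the salvage of nicotinamide into NAD+. Described here is the re-exposure of these resistant cells to FK866, that is, the 4 arrays of CEM RES cells treated with FK866 set against the 4 arrays of mock-treated CEM RES cells, 8 of the 13 arrays of the study. The arrays were taken by their labels alone, and every gene tested was compared. The comparison itself and the gene lists were chosen with earlier results of these data known. The treated cells received 5 nM FK866 for 48 h, and the labels call their counterparts mock. Both groups come from the subline selected for resistance to 100 nM FK866, and the study's methods state that it was kept in medium with that concentration, so mock cells had met the drug before. Whether and for how long FK866 was washed out before the experiment is not given in the sources used here. Total RNA was hybridized to 1-colour Agilent arrays, and the labels number the samples as biological replicates 1 to 4 of each group. Nothing says whether the cultures were set up separately, so that p values measure the spread between these samples. Replicate numbers were used as pairs, because arrays of equal number deviated from their group means in the same direction.

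NAD+ is the electron carrier of glycolysis and respiration and the substrate that sirtuins and poly(ADP-ribose) polymerases consume. Loss of NAD+ is known to drain ATP and to halt proliferation. A question raised by the design is whether a low dose of FK866 still leaves a trace in the transcripts of the resistant line, in single genes or as a small shift shared by a gene family.

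Of 43118 spots that were not controls on each array, between 27788 and 33239 were well above background, and 0 were saturated. Precision is limited by the number of arrays and by the signal over background. Mock replicate 1 was a dim array. The signal at its 75th percentile was 536.8 before normalization, compared with 1043.82 to 1588.73 on the other 7 arrays, and 773 of its spots were marked as outliers, compared with 254 to 308. After quantile normalization its correlation across genes with the other mock arrays was 0.977 to 0.982, and these correlated at 0.985 to 0.99 with each other. The 4 FK866 arrays correlated at 0.985 to 0.991. The arrays lay on slides 5 and 6, each with 2 mock and 2 FK866 arrays, and were scanned in the same session. The labelled cell type was checked by its markers, and 15 of 15 T-lineage markers (CD3D, CD7, LCK and others) were well above background on all 8 arrays. At an unadjusted p under 0.05, 1 of these was lower with FK866 (5.66% of all genes), ZAP70 with a log2 fold change of -0.30 (standard error 0.10). Of 21 measured markers of other cell types 9 were above background on every array and 4 (MPO, EPCAM, COL1A1 and COL3A1) on none. Among the 9 were CD79A (log2 signal 10.86 to 11.89), PECAM1 (10.97 to 11.41), KRT8 and KRT18. Their summed signal was 6254 to 7620 on the FK866 arrays and 6728 to 8801 on the mock arrays, compared with 217917 to 223230 and 223406 to 236045 for the T-lineage markers. The summed T-lineage signal was thus slightly lower on every FK866 array, and its part in the results below was not tested. The sums add signal that is not log transformed, so bright genes weigh most, above all CD3D at a log2 signal of 17.06 to 17.25. CD3D itself differed by -0.05.

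Single genes gave no call. Of 18156 genes tested, 0 (0% of all) passed an adjusted p under 0.05 in limma, where the lowest adjusted p was 0.579. At an unadjusted p under 0.05, 1561 genes (8.60%) differed, 534 higher with FK866 (2.94%) and 1027 lower (5.66%). When the study's double threshold was applied (unadjusted p under 0.05 and an absolute log2 fold change over 0.75), 235 genes passed (1.29%), of which 74 were higher (0.408%) and 161 lower (0.887%). With cyclic loess in place of quantile normalization the split was 93 higher and 121 lower. The number passing was 153 without replicate pair 1, which holds the dim array, and 411 without pair 2. Without the replicate block 758 genes (4.17%) had an unadjusted p under 0.05. The arrays of both groups did not overlap for 253 genes lower with FK866 (1.39%) and 210 higher (1.16%). Because no gene passed the adjusted threshold, no single gene is called below. Each gene is given with the standard error of the limma fit (4 pairs), and counts at an unadjusted p under 0.05 describe size against spread, since the adjusted p of every such gene was 0.579. Over all genes the fitted changes had a median of -0.02, with medians of -0.11, 0.02, 0 and 0 in pairs 1 to 4, and the standard deviation across genes was 0.69 in pair 1 and 0.37 to 0.49 in the other pairs.

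Genes past the double threshold were mostly dim. When the 18156 genes were split by mean signal into 3 bins of 6052, 72 of the 74 higher genes and 114 of the 161 lower genes fell in the dimmest bin, and 0 higher and 11 lower genes in the brightest. Gene families were therefore compared by the median of their fitted changes and by their medians in each pair, which small changes in bright genes can shift while no member passes the double threshold.

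**Figure D1:**
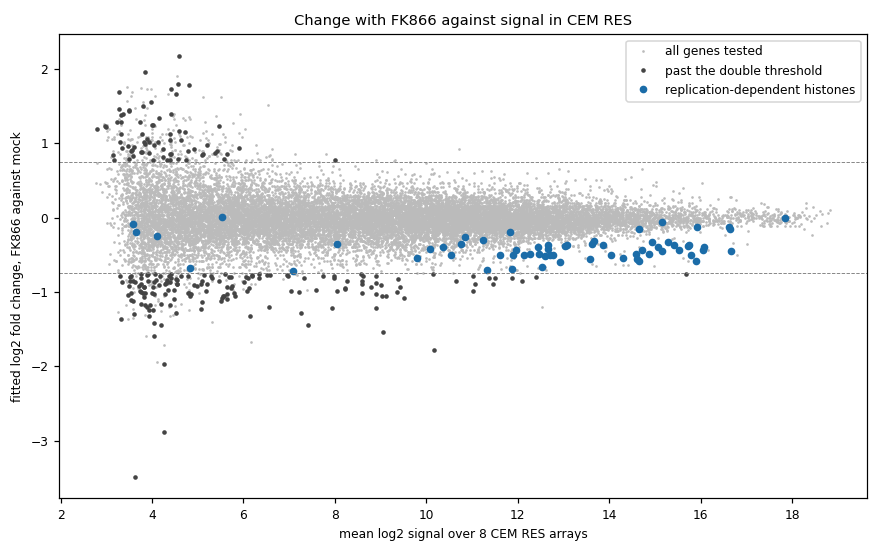
Fitted log2 fold change (FK866 against mock, CEM RES) of each gene against its mean log2 signal over 8 arrays, with dashed lines at -0.75 and 0.75. Genes past the double threshold (dark points) crowd at low signal, and the replication-dependent histones (blue points) lie below 0 mostly at medium and high signal, between -0.72 and 0.01.

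The lowest medians among the gene lists that were compared belonged to the replication-dependent histones, small structured RNAs, small nucleolar RNAs and the genes encoded by mitochondrial DNA. Their median log2 fold changes were -0.42, -0.33, -0.23 and -0.22, compared with -0.02 over all genes. Each of these medians was below 0 in every replicate pair, and also after subtraction of the pair's median over all genes, except for the mitochondrial genes in pair 1 (0.01). At the other end the hypoxia targets had a median of 0.15, while cytosolic ribosomal proteins, with a median of 0.01, and glycolysis, with 0.02, lay near 0. No test of a list was made. The list of small structured RNAs was drawn up after the values had been seen. The lists of histones, small nucleolar RNAs and mitochondrial genes were written with earlier results of these data known.

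**Figure D2:**
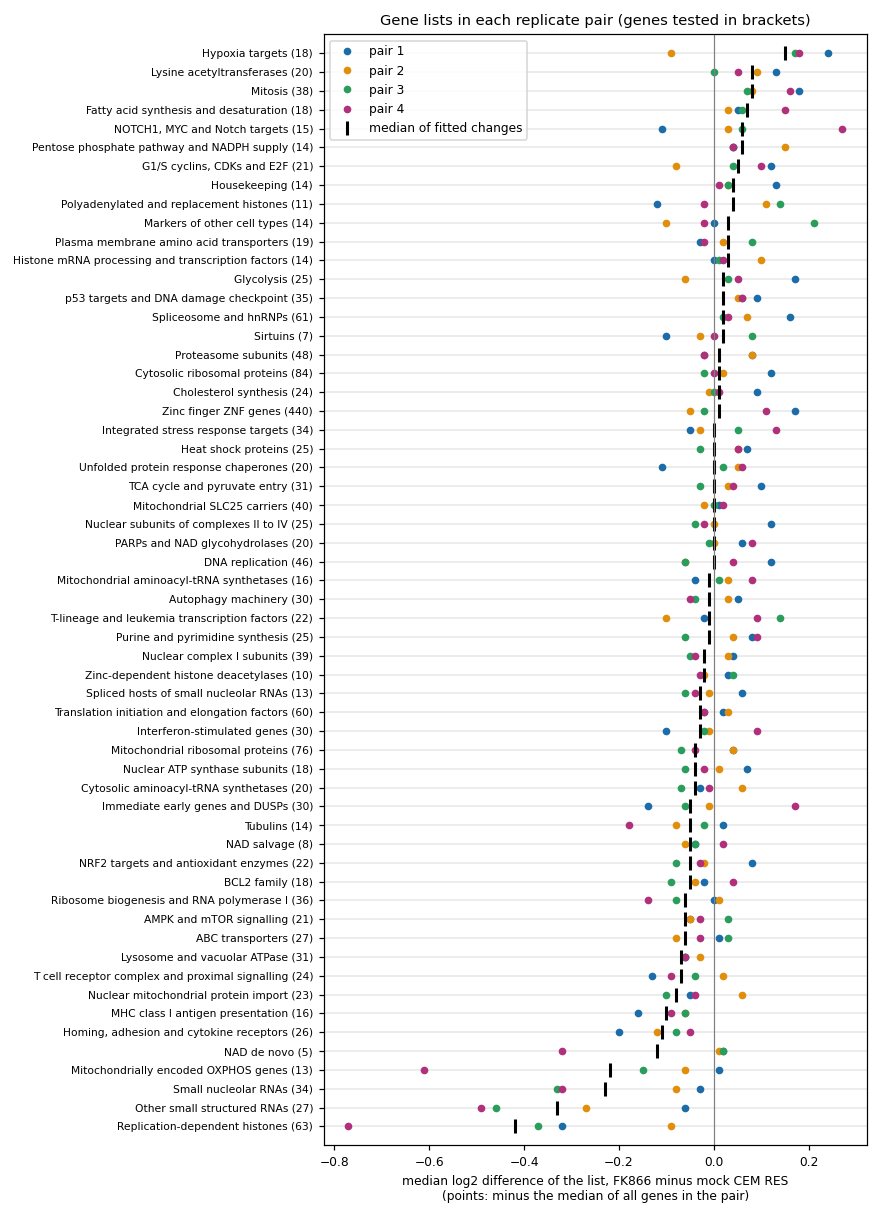
Median log2 difference of each gene list in the 4 replicate pairs (points, after subtraction of the median of all genes in that pair) and median of the fitted log2 fold changes (bars), FK866 minus mock in CEM RES. The replication-dependent histones are lowest in the fit, with pair medians of -0.32, -0.09, -0.37 and -0.77, and most other lists lie within 0.1 of 0.

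Replication-dependent histones, which package newly made DNA and are transcribed in S phase, were the family with the lowest median. Their mRNAs end in a stem-loop in place of a poly(A) tail. Of 69 genes of the list on the array 63 were tested, and 60 of these were well above background on all 8 arrays. With FK866, 62 of the 63 had a fitted change below 0, where 53.9% of all genes did, and the fitted log2 fold changes ranged from -0.72 to 0.01. At an unadjusted p under 0.05, 38 were lower and 0 higher, where 5.66% and 2.94% of all genes were. Lower in all 4 pairs were 39 histone genes (10.4% of all genes), and the arrays of both groups did not overlap, with FK866 lower, for 4 (1.39% of all genes). Of the 63, 0 passed the double threshold or the adjusted one. The number lower at an unadjusted p under 0.05 was 21 without replicate pair 1, 44 without pair 2, 11 without pair 3 and 10 without pair 4. Of all 18156 genes, 790, 1455, 569 and 512 were lower at that p in these fits. The histone median stayed between -0.53 and -0.31 whichever pair was left out.

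Relative to each gene's mean over the 8 arrays, the median histone level was -0.12, -0.26, -0.01 and -0.44 log2 units on FK866 arrays 1 to 4 and 0.30, -0.17, 0.40 and 0.36 on mock arrays 1 to 4. Mock replicate 2 stood apart from its group and was below FK866 replicates 1 and 3, so that the groups overlapped. In bulk RNA, fewer cells in S phase and less histone mRNA per cell cannot be told apart. Whether these mRNAs, which lack a poly(A) tail, were labelled to the same degree on each array was not tested. On slide 5, which held FK866 replicates 1 and 3 and mock replicates 3 and 4, both FK866 arrays were below both mock arrays, and the same was true on slide 6. In pairs 2 and 3, whose arrays share a slide, the histone medians were -0.07 and -0.37. When these 2 pairs alone were fitted, the median was -0.24, with 57 of 63 genes below 0. At an unadjusted p under 0.05, 3 were lower, where 571 of all 18156 genes were in that fit.

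**Figure D3:**
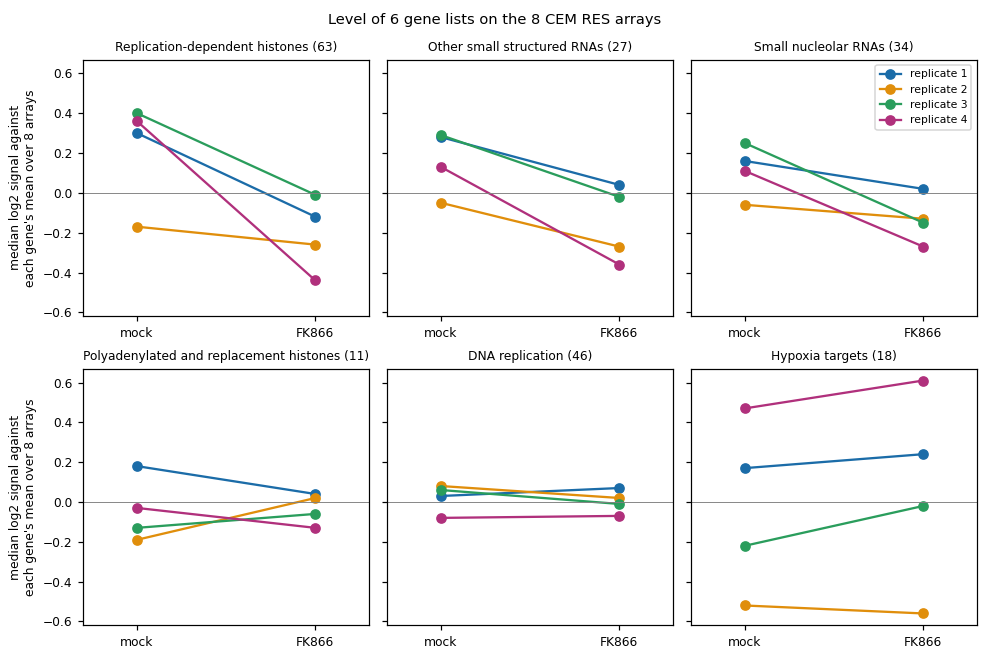
Median log2 signal of 6 gene lists on each CEM RES array, relative to each gene's mean over 8 arrays, with lines joining mock and FK866 arrays of the same replicate number. Histones, other small structured RNAs and small nucleolar RNAs slope down in all 4 pairs, with mock replicate 2 low for histones (-0.17), whereas hypoxia targets differ more between replicate numbers than between treatments.

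The medians were below 0 in all 5 histone classes. The median log2 fold change was -0.33 for H1 (5 genes), the linker histone, and -0.40 for H2A (15 genes), -0.50 for H2B (17 genes), -0.37 for H3 (13 genes) and -0.49 for H4 (13 genes), which form the nucleosome core. Lower at an unadjusted p under 0.05 were 3 H1, 9 H2A, 13 H2B, 3 H3 and 10 H4 genes, where 5.66% of all genes were. Of the 52 tested histone genes on chromosome 6, whose probes lay between 25726563 and 27861647 (hg19), 52 were below 0 and 35 of them at an unadjusted p under 0.05. On chromosome 1, 9 of 10 were below 0 and 3 at that p.

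For the gene with the smallest p in each class that had a promoter in the RefSeq tables, the 150 bases before the transcription start are given here (build GRCh38.p14, gene strand, 5′ to 3′), since promoters of these genes are known to share TATA and CCAAT boxes. Capitals mark TATAAA and CCAAT, or its reverse complement ATTGG. They come from the genes for linker histone HIST1H1B (H1-5, chr6:27867589-27867738, minus strand), HIST1H2AK (H2AC15, chr6:27838376-27838525, minus strand), HIST1H2BH (H2BC9, chr6:26251464-26251613, plus strand), HIST1H3B (H3C2, chr6:26032100-26032249, minus strand) and HIST1H4K (H4C12, chr6:27831561-27831710, minus strand).
HIST1H1B: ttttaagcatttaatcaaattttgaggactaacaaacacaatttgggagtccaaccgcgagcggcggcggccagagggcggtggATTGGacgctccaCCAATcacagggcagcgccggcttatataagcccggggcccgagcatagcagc
HIST1H2AK: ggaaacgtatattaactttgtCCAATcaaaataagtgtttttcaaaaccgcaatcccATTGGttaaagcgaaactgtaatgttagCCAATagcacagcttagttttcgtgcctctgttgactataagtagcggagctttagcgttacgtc
HIST1H2BH: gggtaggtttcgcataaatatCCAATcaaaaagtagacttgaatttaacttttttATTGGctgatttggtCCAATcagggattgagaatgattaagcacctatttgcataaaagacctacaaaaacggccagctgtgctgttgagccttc
HIST1H3B: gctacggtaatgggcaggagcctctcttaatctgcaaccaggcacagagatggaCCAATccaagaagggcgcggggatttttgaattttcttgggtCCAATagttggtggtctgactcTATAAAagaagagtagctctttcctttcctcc
HIST1H4K: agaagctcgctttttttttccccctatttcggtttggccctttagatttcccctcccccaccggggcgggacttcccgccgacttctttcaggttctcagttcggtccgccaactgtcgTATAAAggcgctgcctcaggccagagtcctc

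In the 250 bases before the start, TATAAA on either strand was found in 67.3% of the 52 histone promoters that could be matched by symbol and in 11.1% of all 27305 promoters of the table. CCAAT on either strand was found in 84.6% and 33%, and both in 57.7% and 4.01%. Of 10 promoters of polyadenylated and replacement histones, 40% held TATAAA and 70% CCAAT. These matches describe letters in a window and not bound sites.

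HIST1H4K, an H4 gene, had the smallest p among the histones. Its log2 signal was 14.49, 14.50, 15.10 and 14.45 on FK866 arrays 1 to 4 and 14.97, 14.93, 15.39 and 15.20 on mock arrays 1 to 4. FK866 replicate 3 was above mock replicates 1 and 2, yet within every pair the FK866 array was lower. The fitted change was -0.49 on the log2 scale (standard error 0.11), and its probe lies on chromosome 6 at 27799089 to 27799148 (hg19).

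HIST1H2BC, an H2B gene, had log2 signals of 10.47, 10.21, 10.32 and 10.12 with FK866 and 10.99, 10.32, 10.93 and 10.90 in mock cells. Here mock replicate 2 was at the level of FK866 replicate 3 and the 3 other mock arrays were above every FK866 array. The fitted change was -0.50 (standard error 0.14).

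HIST1H3B, an H3 gene, had 15.96, 15.62, 15.73 and 15.11 with FK866 and 16.25, 15.83, 16.25 and 16.46 in mock cells, again with mock replicate 2 inside the FK866 range. The fitted change was -0.59 (standard error 0.22), with -1.35 in pair 4. For HIST1H1B, which codes for a linker histone, the values were 14.52, 14.17, 14.74 and 13.91 with FK866 and 15.13, 14.22, 15.09 and 14.85 in mock cells (-0.49, standard error 0.17). Pair 2 differed by -0.05 and pair 4 by -0.94, the pattern that recurred across the family.

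HIST1H2AK, the H2A gene whose promoter is shown, had 15.89, 15.84, 16.07 and 15.55 with FK866 and 16.35, 16.03, 16.40 and 16.31 in mock cells (-0.44, standard error 0.12), with overlap through FK866 replicate 3 and mock replicate 2. HIST1H2BH, the H2B gene with its promoter above, had 13.81, 13.83, 13.87 and 13.64 with FK866 and 14.39, 13.86, 14.42 and 14.46 in mock cells (-0.50, standard error 0.15). Here 3 mock arrays stood well clear of the FK866 arrays and mock replicate 2 lay among them.

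HIST1H2AL, an H2A gene, was among the 4 whose groups did not overlap. It measured 11.46, 11.04, 11.20 and 10.21 with FK866 and 11.79, 11.79, 11.52 and 11.65 in mock cells, that is, a change of -0.71 (standard error 0.22). The others without overlap were HIST1H2BL (-0.40), HIST2H2AC (-0.56) and HIST1H2BF (-0.51).

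Not every histone gene was lower. HIST1H4C, an H4 gene, had a log2 signal of 17.88, 17.70, 18.06 and 17.69 with FK866 and 17.75, 17.76, 17.94 and 17.91 in mock cells. The groups overlapped throughout, and the fitted change was -0.01 (standard error 0.10). HIST3H2BB, whose fitted change was 0.01, was the only histone above 0, and HIST3H3 differed by -0.06 and HIST1H1C by -0.13.

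**Figure D4:**
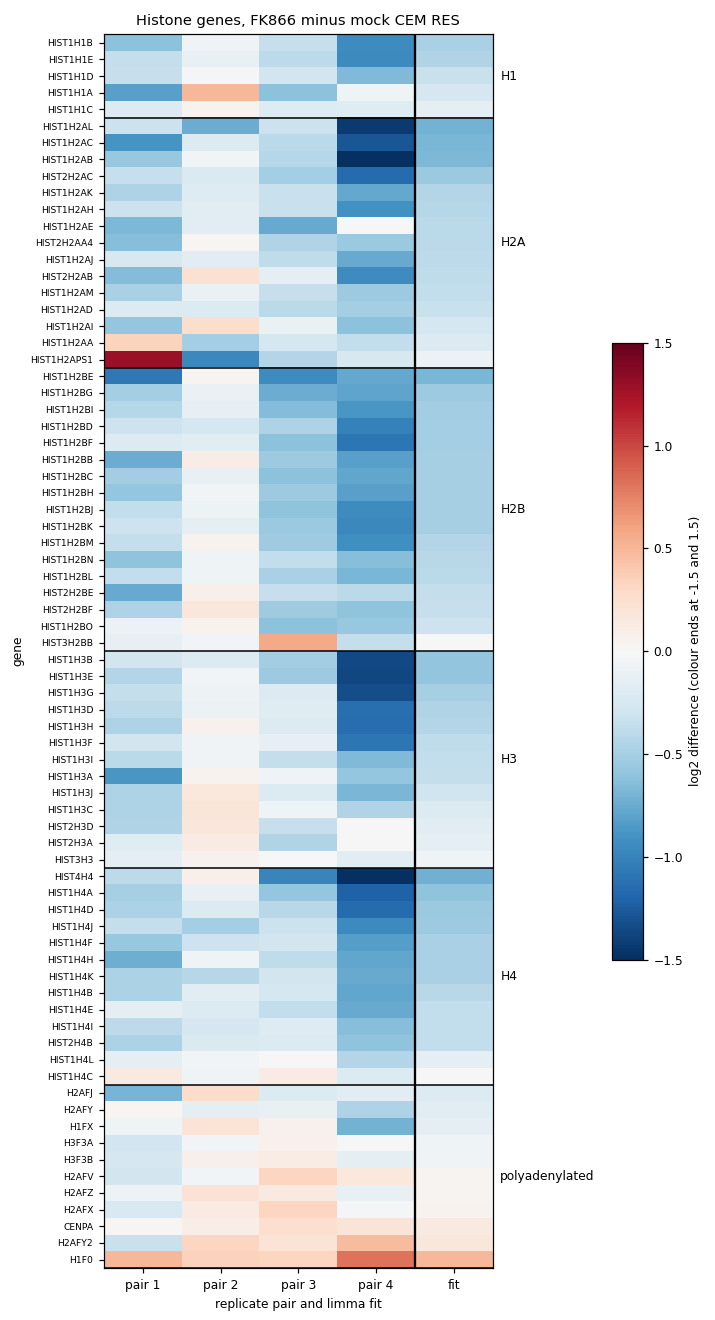
Log2 difference (FK866 minus mock, CEM RES) of each tested histone gene in pairs 1 to 4 and in the limma fit, ordered within histone class. Blue prevails in pairs 1, 3 and 4 and is pale in pair 2 for the replication-dependent classes, and the polyadenylated histones at the bottom have a median of 0.04.

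Different probes of the same histone gene were compared with each other. Of 73 kept histone probes 70 had a fitted change below 0, and 45 were lower at an unadjusted p under 0.05 (53.9% and 5.66% of all genes). HIST1H2AC had 3 kept probes. The probe used gave -0.69 (standard error 0.20), a neighbour 0.058 kb away gave -0.53 (standard error 0.16), and the remaining probe, 14.4 kb away, gave 0.02 (standard error 0.12). For HIST1H2BK the probe used gave -0.50 (standard error 0.16) and a probe 8.25 kb away gave -0.09 (standard error 0.09). In both genes the distant probe therefore showed no difference of that size. For HIST1H4L the probes disagreed although they lie 0.105 kb apart, with -0.15 (standard error 0.11) for the probe used and -0.69 (standard error 0.21) for the other. Near-identical histone copies can share hybridization, and 6 of the 63 genes, in 3 groups, had probes that share a run of at least 30 bases. Among the other 57 genes, 56 were below 0 and 35 were lower at an unadjusted p under 0.05 (53.9% and 5.66% of all genes). Probes were compared only with each other and not with the transcripts of other histone genes. Whether these 57 also share hybridization was therefore not tested.

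The replacement histones are made also outside S phase, from polyadenylated mRNAs. This list of 11 genes and the list of histone mRNA processing factors were drawn up after the values had been seen. The median log2 fold change of the 11 was 0.04, with 0 lower and 1 higher at an unadjusted p under 0.05 (5.66% and 2.94% of all genes). H2AFZ, which codes for H2A.Z, differed by 0.04, H3F3A by -0.06 and H3F3B by -0.05, both of which code for H3.3. The higher one was H1F0, a linker histone gene known for its expression in resting and differentiating cells. It measured 7.52, 7.09, 7.04 and 7.61 with FK866 and 7.02, 6.73, 6.72 and 6.79 in mock cells. Every FK866 array was above every mock array, which held for 1.16% of all genes, and the fitted change was 0.50 (standard error 0.12).

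Of 14 factors that transcribe or process histone mRNA, with a median of 0.03, 0 were lower at an unadjusted p under 0.05 and 1 was higher (5.66% and 2.94% of all genes). This was CASP8AP2, also known as FLASH, which acts in histone mRNA 3′ end processing. It measured 11.48, 11.13, 11.18 and 11.49 with FK866 and 11.17, 10.97, 10.88 and 10.69 in mock cells (0.39, standard error 0.13), with FK866 replicate 2 below mock replicate 1. The stem-loop binding protein gene SLBP differed by 0.13 (standard error 0.10), and NPAT, the coactivator of histone transcription, by 0.33 (standard error 0.14).

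A list of other short RNAs without a poly(A) tail was drawn up after the values had been seen. It comprises the U1 and U2 spliceosomal RNAs, the RNA components of RNase P, RNase MRP, telomerase and the 7SK particle, and the small Cajal body RNAs, which guide the modification of spliceosomal RNAs. Of 27 tested genes (34 on the array) 25 had a fitted change below 0 (53.9% of all genes). At an unadjusted p under 0.05, 9 were lower (5.66% of all genes) and 1 higher, SNAR-E with 0.36, and 10 were lower in all 4 pairs (10.4%). The list medians in pairs 1 to 4 were -0.17, -0.26, -0.46 and -0.49. The levels relative to each gene's mean were 0.04, -0.27, -0.02 and -0.36 on the FK866 arrays and 0.28, -0.05, 0.29 and 0.13 on the mock arrays, so that again mock replicate 2 overlapped with the FK866 group.

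RNU2-2, a U2 gene, had the largest difference of this list. Its log2 signal was 12.37, 11.71, 11.57 and 10.98 with FK866 and 12.61, 12.45, 12.56 and 12.46 in mock cells. The groups did not overlap, and the fitted change was -0.86 (standard error 0.21). U1 and U2 genes have many near-identical copies, so which copy gave the signal is uncertain, here and for RNU1-5 (-0.80, standard error 0.19).

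RPPH1, the RNA of RNase P, which matures tRNA 5′ ends, measured 10.73, 10.64, 11.03 and 10.07 with FK866 and 11.61, 10.95, 11.63 and 11.41 in mock cells (-0.78, standard error 0.19). Only FK866 replicate 3 reached above the lowest mock array. SCARNA6, a small Cajal body RNA, measured 5.62, 5.55, 5.99 and 5.42 with FK866 and 6.32, 5.97, 6.52 and 6.28 in mock cells (-0.62, standard error 0.11), with the same pair of arrays touching. RN7SK, which restrains the elongation factor P-TEFb, measured 15.95, 15.18, 15.33 and 14.73 with FK866 and 16.04, 15.70, 16.17 and 16.31 in mock cells. Its difference was -0.08 in pair 1 and -1.58 in pair 4, and -0.76 in the fit (standard error 0.25). RMRP, the RNA of RNase MRP, differed by -0.55 (standard error 0.16), TERC, the telomerase RNA, by -0.31 (standard error 0.12), and RN7SL1, of the signal recognition particle, by -0.07.

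Small nucleolar RNAs, which guide the modification of ribosomal RNA, are cut from introns of host transcripts. Of 34 tested (40 on the array, 26 well above background on all 8 arrays) 27 were below 0, where 53.9% of all genes were. At an unadjusted p under 0.05, 9 were lower and 0 higher (5.66% and 2.94% of all genes), and 11 were lower in all 4 pairs (10.4% of all genes). The list medians in pairs 1 to 4 were -0.15, -0.06, -0.33 and -0.32. SNORA81 measured 8.91, 8.45, 8.63 and 8.19 with FK866 and 9.06, 8.73, 9.28 and 9.08 in mock cells (-0.49, standard error 0.15). The groups overlapped through FK866 replicate 1 and mock replicate 2. SNORA74A measured 7.51, 7.42, 7.59 and 6.92 with FK866 and 8.24, 7.44, 8.37 and 8.39 in mock cells (-0.75, standard error 0.24), with mock replicate 2 once more among the FK866 values. SNORA60 had the largest fitted difference of the list, -1.13 (standard error 0.33), to which pair 1 with the dim array gave -2.40 and the other pairs -0.50 to -0.85. The spliced transcripts of 13 small nucleolar RNA hosts, a list drawn up after the values had been seen, had a median of -0.03 and 0 members at an unadjusted p under 0.05 in either direction. Among them GAS5, the host of many box C/D RNAs, differed by 0.08 and SNHG1 by 0.02. How the labelling reaction was primed is not given in the sources used here, and whether RNAs without a tail were labelled to the same degree on each array was not tested.

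Among the cell cycle genes that accompany histone synthesis, 46 DNA replication genes had fitted changes with a median of 0.00. At an unadjusted p under 0.05, 2 were lower and 0 higher, shares no larger than those of all genes (5.66% and 2.94%). The lower ones were POLD2 (-0.45, standard error 0.12) and POLE (-0.44, standard error 0.17), subunits of DNA polymerases delta and epsilon. PCNA, the sliding clamp of the replication fork, measured 15.22, 14.99, 15.01 and 15.15 with FK866 and 14.84, 14.97, 14.91 and 14.87 in mock cells. Every FK866 array was above every mock array (1.16% of all genes), though by a difference of 0.19 whose standard error was 0.10, not under an unadjusted p of 0.05. Of 21 G1/S cyclins, kinases and E2F factors (median 0.05), 1 was lower at that p, a share near that of all genes (5.66%). This was CDKN1B, the gene for the Cdk inhibitor p27. It measured 11.15, 10.53, 10.59 and 10.62 with FK866 and 11.71, 10.82, 11.11 and 11.39 in mock cells (-0.54, standard error 0.11), lower in every pair, with the groups overlapping through FK866 replicate 1.

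Of 38 mitotic genes 29 had a fitted change above 0, where 46.1% of all genes did, and the median was 0.08. At an unadjusted p under 0.05, 5 were higher (2.94% of all genes) and 1 lower (5.66%). Higher were ANLN (0.42, standard error 0.11), NUF2 (0.34), TOP2A (0.29), ECT2 (0.58) and BUB1 (0.25), which act in cytokinesis, at kinetochores and in chromosome segregation. ECT2 differed by 1.26 in pair 1, which holds the dim array, and by 0.24 to 0.42 in the other pairs. The lower one was MKI67, the proliferation marker, with 13.67, 13.28, 12.90 and 12.63 with FK866 and 13.90, 13.60, 13.23 and 13.56 in mock cells (-0.45, standard error 0.15). Its other probes gave -0.28 (standard error 0.09) and -0.25 (standard error 0.14).

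Of the 13 mitochondrially encoded genes, subunits of respiratory complexes I, III and IV and of the ATP synthase, 13 had a fitted change below 0 (53.9% of all genes), and 2 were lower at an unadjusted p under 0.05 (5.66% of all genes). Their medians in pairs 1 to 4 were -0.10, -0.04, -0.15 and -0.61, with pair 4 the lowest. The list median of -0.22 was -0.11 without pair 4, -0.07 in the pairs on a single slide and between -0.29 and -0.07 over all settings tried. ND4L, a complex I subunit, measured 17.01, 16.76, 16.89 and 16.72 with FK866 and 17.14, 17.04, 17.23 and 17.36 in mock cells. No FK866 array reached the lowest mock array, and the fitted change was -0.35 (standard error 0.12). ND5, also of complex I, differed by -0.39 (standard error 0.15). The array design places the COX1 probe on chromosome 1 (hg19), so the origin of its signal (-0.50, standard error 0.30) is uncertain, and ND4 lacked a value on mock array 1. Among nuclear genes, 39 complex I subunits had a median of -0.02 with 28 below 0 and 0 at an unadjusted p under 0.05, 25 subunits of complexes II to IV had 0.00 with SDHD alone higher (0.22, standard error 0.08), and 18 ATP synthase subunits had -0.04.

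NAMPT, the target of FK866, measured 11.38, 10.88, 11.07 and 11.49 with FK866 and 11.36, 10.96, 11.11 and 11.41 in mock cells. The difference was 0.00 (standard error 0.09), and the arrays varied with replicate number in both groups alike. Its other kept probes gave -0.20 (standard error 0.11) and 0.18 (standard error 0.15). Of 8 tested NAD salvage genes (median -0.05) and 5 tested genes of the de novo route from tryptophan (median -0.12), 0 differed at an unadjusted p under 0.05 with the probe used. Another probe was lower at that p for NADK, the NAD kinase (-0.42, standard error 0.13, against -0.21 for the probe used), and for HAAO of the de novo route (-0.36, standard error 0.12), whose used probe gave 0.20 and whose remaining probe gave 0.52. NAPRT1, which salvages nicotinic acid, differed by -0.40 (standard error 0.20) and QPRT, which takes quinolinate into the NAD+ pathway, by -0.12 (standard error 0.10).

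Of the 7 sirtuins, deacylases that consume NAD+, 1 was higher and 0 lower at an unadjusted p under 0.05 with the probe used (2.94% and 5.66% of all genes). SIRT1 measured 10.40, 10.62, 10.58 and 10.54 with FK866 and 10.20, 10.33, 10.22 and 10.04 in mock cells. All FK866 arrays were above all mock arrays (1.16% of all genes), by 0.34 in the fit (standard error 0.10). SIRT2 differed by -0.32 (standard error 0.13) and SIRT3 by 0.09. SIRT7 differed by -0.22 (standard error 0.10) and was lower in all 4 pairs, and its other probe gave -0.35 (standard error 0.12), under that p. SIRT5 had 4 kept probes, which gave 0.02 for the one used (standard error 0.09) and -0.31, -0.10 and 0.29 for the others, so that its direction depends on the probe.

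The integrated stress response, which cells mount through ATF4 when amino acids or energy run short, showed no common direction. Of 34 genes tested the median was 0.00, with 3 lower and 1 higher at an unadjusted p under 0.05 (5.66% and 2.94% of all genes). ATF4 itself differed by 0.02 (standard error 0.11), its target ASNS, the asparagine synthetase, by 0.11 (standard error 0.09), and DDIT3, which codes for CHOP, by -0.10 (standard error 0.10). Lower were ALDH1L2, a mitochondrial folate enzyme (-0.89, standard error 0.28), PCK2, which makes phosphoenolpyruvate in mitochondria (-0.37, standard error 0.12), and SLC3A2, the heavy chain of amino acid exchangers (-0.48, standard error 0.19). Higher was XPOT, which exports tRNA (0.39, standard error 0.11). For ALDH1L2 pairs 1 and 3 differed by -1.49 and -1.47 and pair 2 by -0.07. LDHA and LDHB, the lactate dehydrogenases, differed by 0.06 and 0.05, SLC7A5, the light chain of a large amino acid exchanger, by -0.09, PRKAA1, a catalytic subunit of AMPK, by -0.06, and CHEK1, a checkpoint kinase, by 0.02, none at an unadjusted p under 0.05. GADD45G, a stress gene that acts on growth arrest, was lower at that p (-0.66, standard error 0.18). It measured 3.76, 3.19, 4.43 and 2.97 with FK866 and 4.58, 4.07, 4.48 and 3.86 in mock cells, but its signal cleared the background on all 4 mock arrays and on 1 FK866 array alone, and pair 3 differed by -0.05.

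Receptors for homing, adhesion and cytokines had a median of -0.11, with 21 of 26 below 0 (53.9% of all genes). The 2 lower at an unadjusted p under 0.05 are a share near that of all genes (5.66%). CCR4, a chemokine receptor, measured 9.60, 9.09, 9.26 and 9.36 with FK866 and 10.05, 9.43, 9.59 and 9.97 in mock cells. The groups overlapped through FK866 replicate 1, and the pair differences were -0.45, -0.35, -0.33 and -0.60, with -0.43 in the fit (standard error 0.10). SELPLG, the P-selectin ligand on leukocytes, measured 11.59, 12.05, 11.90 and 11.80 with FK866 and 12.14, 12.17, 12.36 and 12.23 in mock cells, without overlap (-0.39, standard error 0.11), and its second probe gave -0.47 (standard error 0.13). IL7R, the interleukin 7 receptor, differed by -0.23 (standard error 0.09). Among 16 genes of MHC class I antigen presentation (median -0.10) NLRC5, their transactivator (-0.31, standard error 0.11), and HLA-E (-0.24, standard error 0.09) were lower and 0 higher at an unadjusted p under 0.05 (5.66% and 2.94% of all genes). MIR17HG, the host of the miR-17-92 cluster, which lies outside these lists and was chosen after its values were seen, measured 8.20, 8.61, 8.68 and 7.32 with FK866 and 8.60, 8.98, 9.16 and 8.11 in mock cells. It was lower in each pair, by -0.36 to -0.78, while the groups overlapped (-0.51, standard error 0.11).

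Hypoxia targets had the highest median, 0.15, with 14 of 18 above 0 (46.1% of all genes) and 2 higher at an unadjusted p under 0.05 (2.94% of all genes). KDM3A, a histone demethylase, was higher by 0.32 (standard error 0.09) and P4HA1, a collagen prolyl hydroxylase, by 0.27 (standard error 0.10). The level of this list followed the replicate number. Relative to each gene's mean it was 0.24, -0.56, -0.02 and 0.61 on FK866 arrays 1 to 4 and 0.17, -0.52, -0.22 and 0.47 on mock arrays 1 to 4. The spread between replicate numbers was thus larger than the difference between treatments, and pair 2 differed in the other direction from the rest once the median of all genes was subtracted (-0.09).

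Among the genes past the double threshold, 7 higher and 101 lower genes were well above background on all 8 arrays. Of these, 6 and 84 differed in the same direction in all 4 pairs, where 8.07% and 10.4% of all genes did. The double threshold in a paired fit already favours genes with equal signs, so these counts are no separate evidence. CES1, a carboxylesterase that hydrolyses lipid esters and drugs, measured 7.05, 6.86, 6.78 and 6.14 with FK866 and 8.07, 7.44, 7.69 and 7.66 in mock cells. The groups did not overlap, and the fitted change was -1.0 (standard error 0.17). GPR20, an orphan G protein-coupled receptor, measured 4.15, 3.89, 4.18 and 3.74 with FK866 and 4.82, 4.86, 5.40 and 4.76 in mock cells, also without overlap (-0.97, standard error 0.12). GPC3, a cell surface proteoglycan, differed by -0.90 (standard error 0.12) with the probe used and by 0.43 (standard error 0.16) with another, and RNF222, a RING finger gene, by -0.95 and 0.54 (standard errors 0.12 and 0.37), so that no direction can be given for either gene. Among the higher genes NMD3, the export adaptor of the large ribosomal subunit, measured 9.72, 10.02, 10.39 and 9.98 with FK866 and 8.23, 9.52, 9.94 and 9.41 in mock cells (0.75, standard error 0.20). Mock replicate 1, the dim array, was lowest, and pair 1 differed by 1.49 and the others by 0.45 to 0.57.

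The same lists were examined in parental CCRF-CEM cells (CEM PA), where 2 FK866 and 3 mock arrays were available and the paired fit rests on replicate pairs 1 and 2. These arrays lay on other slides and were scanned in other sessions, so that cell line and session cannot be told apart, whereas each response compares arrays scanned with its own line. The arrays of CEM PA pair 1 shared slide 1. Those of pair 2 were scanned in a different session, with the FK866 array on slide 3 and the mock array on slide 2. Replicate number and session cannot be told apart in these pairs. On 13 arrays fitted together, 60 histones had a median of 0.47 in CEM PA, with 57 above 0 (45.5% of all 17594 genes), 17 higher at an unadjusted p under 0.05 (9.74% of all genes) and 0 lower (12.9%). Their medians were 0.88 in pair 1 and 0.15 in pair 2 of CEM PA. The small nucleolar RNAs had a median of 0.47 with 29 of 32 above 0 and 13 higher, and the other small structured RNAs 0.45 with 21 of 25 above 0 and 10 higher. The polyadenylated histones had a median of -0.01. The spliced hosts of small nucleolar RNAs had 0.26, with 11 of 12 above 0 and 2 higher at that p, that is, on the same side as the small nucleolar RNAs in CEM PA.

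The difference between both responses was tested gene by gene. It passed an adjusted p under 0.05 in limma for 31 genes (0.176%), of which 0 were histones. This number was 0 to 1 when a replicate of either line was left out. Below 0 at an unadjusted p under 0.05 were 49 of the 60 histones, where 9.69% of all genes were, or 29 without the replicate block. The median difference, CEM RES minus CEM PA, was -0.89 for histones, -0.79 for small nucleolar RNAs and -0.70 for the other small RNAs, compared with 0.02 over all genes. For HIST1H4K it was -0.85 (standard error 0.22, limma adjusted p = 0.122), for RNU2-2 -1.95 (standard error 0.39, limma adjusted p = 0.0836) and for SCARNA5, a small Cajal body RNA, -1.92 (limma adjusted p = 0.0534). CEM PA replicate 1 decided much of the size. Without it 5 histones remained at an unadjusted p under 0.05 with a median difference of -0.54, and without CEM PA replicate 2 there were 51, with -1.28.

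**Figure D5:**
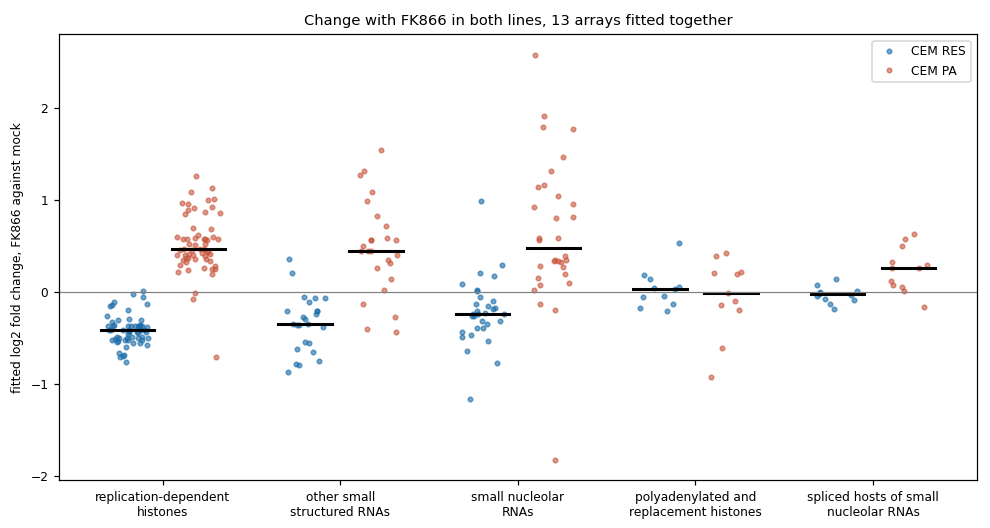
Fitted log2 fold changes with FK866 of each gene of 5 lists in CEM RES (blue) and CEM PA (red), 13 arrays fitted together, with black bars at the medians. Histone medians are -0.42 in CEM RES and 0.47 in CEM PA, and those of polyadenylated histones lie near 0 in both lines.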

How the data were processed

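Total RNA of CEM RES cells (4 FK866, 4 mock arrays) and CEM PA cells (2 FK866, 3 mock arrays) was labelled with Cy3 and hybridized to Agilent arrays. The intensity used was the processed signal of each spot that the authors deposited, background-corrected and detrended by Feature Extraction (10.7.7.1 per the submitters' processing notes, 10.7.3.1 per the file headers) and not normalized between arrays. The authors also deposited quantile normalized log2 values of the same arrays, which were used as an alternative.

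Control spots and outlier spots were left out, spots of a probe averaged, and the log2 values quantile normalized over the 8 CEM RES arrays. Of 34127 probes 23404 were kept as well above background on at least 4 arrays, and the brightest kept probe stood for each of 18156 genes (4164 had more than 1). Gene names were taken as the array design gives them, and 14764 matched a current RefSeq symbol or synonym. Fold changes were fitted in limma 3.58.1 (R 4.3.3), two-sided, with replicate number as a block and Benjamini-Hochberg adjustment over all genes. The deviations of arrays of equal number correlated at 0.198, 0.361, 0.444 and 0.262, all over 0.1, so the numbers were taken to pair the samples. The difference of the CEM RES and CEM PA responses was fitted on 13 arrays normalized together (17594 genes), with replicate number within each line as a block. Other steps used the data.table package (1.17.8), Python 3.11.15, numpy 2.4.6, pandas 2.3.3 and matplotlib 3.10.9. The fit was tested on simulated data.

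The comparison and the gene lists were chosen with earlier results of these data known, and 4 lists (polyadenylated histones, other small structured RNAs, small nucleolar RNA hosts, histone mRNA factors) and the split by histone class after the values had been seen. Named were the measured NAD and sirtuin genes and a set of stress genes, then up to 4 members in the direction of the median and 2 in the other for lists with the same sign in 4 pairs, and up to 10 genes each way past the double threshold, by smallest p. All other genes named were chosen after their values were seen. Alternatives were no block, the slide as a block, 13 arrays, other normalization, background, filters, probe rules, weights, prior variance and each replicate pair left out. Promoters are from RefSeq (GRCh38.p14), whereas probe coordinates are hg19 as the array files give them.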

Additional observations from a re-analysis of the deposited data

Results flagged for a closer look

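In 178 groups of 4 arrays examined (array quality and the named genes), 13 held 1 array far from the other 3, and chance gives about 1 in 20 such groups. Mock replicate 1 of CEM RES had 773 outlier spots, against 254 to 294 on the other mock arrays. SNORA74B was high on both arrays of replicate 1, at 9.43 with FK866 (others 8.47 to 8.60) and at 10.05 in mock cells (others 8.72 to 8.91). FK866 replicate 3 was high for HIST1H4K at 15.1 (others 14.45 to 14.50), for HIST1H4F at 12.64 (others 11.77 to 11.87) and for HIST3H2BB at 6.03 (others 5.34 to 5.42), whereas HIST3H2BB was also high on mock replicate 4 at 5.69 (others 5.46). Mock replicate 2 was low for HIST1H2BC at 10.32 (others 10.90 to 10.99) and for SNORA74A at 7.44 (others 8.24 to 8.39). The remaining arrays that stood apart were FK866 replicate 1 for SIRT6 at 10.34 (others 10.76 to 10.84), FK866 replicate 1 for the unnamed probe A_33_P3266091 at 4.16 (others 3.5 to 3.58), mock replicate 1 for C7orf46 at 6.94 (others 7.80 to 7.87) and mock replicate 3 for GPR20 at 5.40 (others 4.76 to 4.86).

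The medians of replication-dependent histones, small nucleolar RNAs and other small structured RNAs were below 0 in every CEM RES pair. In CEM PA the medians of the same lists were above 0 in each pair. The median difference of the responses, CEM RES minus CEM PA, was -0.89 for replication-dependent histones, -0.79 for small nucleolar RNAs and -0.70 for the other small structured RNAs. The difference was tested gene by gene only and not for the lists.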

How the results depend on the processing

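The number of genes past the double threshold, 235 (74 higher, 161 lower), was 33 with normexp background correction (4 higher, 29 lower), 447 without a filter on dim probes (178 and 269), 118 with probes well above background on all 8 arrays and 85 without the block and without CEM RES mock replicate 1 (30 and 55). With replicate block and slide together it was 334 (175 and 159), with 75th percentile scaling the split was 47 and 155, on 13 arrays with the block 116 and 139, and when each pair was left out it ranged from 153 to 411. With no replicate block it was 192 (75 and 117), and the genes at an unadjusted p under 0.05 were 758 in place of 1561. The number at an adjusted p under 0.05 was 0 in limma under every alternative. Lower histones at an unadjusted p under 0.05, 38, were 23 on 13 arrays with the replicate block, 12 on 13 arrays with no replicate block, 19 without the block and without CEM RES mock replicate 1, and 3 in the pairs on a single slide. They were 27 with no replicate block, 34 with slide as block and 10 to 44 when each pair was left out. Of all genes, 1027 were lower at that p in the main fit. In the same order the alternatives gave 1081, 470, 297, 571, 474 and 488, and 512 to 1455 when each pair was left out. The histone median stayed between -0.53 and -0.24 over 21 settings, that of small structured RNAs between -0.44 and -0.24 and that of small nucleolar RNAs between -0.31 and -0.14, whereas the polyadenylated histones ranged from -0.08 to 0.14. Histones differing between the lines, 49, were 29 on 13 arrays with no replicate block and 5 to 51 when a replicate was left out, and genes at an adjusted p in that comparison, 31, were 23 and 0 to 1. Of the values of single named genes under the alternatives, 1408 stayed on their side of the unadjusted threshold, 119 lost it, 17 gained it, and 15 values of genes not under that p moved by more than their standard error, among them ATF4, LDHA and LDHB at -0.14, -0.10 and -0.08 with 75th percentile scaling. The cause of these changes was not tested. Dim probes limit what can be seen, since 72 of 74 higher genes lay in the dimmest bin.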

Other observations

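In 3 further lists the counts at an unadjusted p under 0.05 were small, beside 5.66% of all genes lower and 2.94% higher, and 0 genes passed the adjusted threshold in limma (1561 the unadjusted one). Of 14 tubulins (median log2 fold change -0.05, 2 lower and 0 higher at an unadjusted p under 0.05) TUBA3D, an alpha tubulin, measured 8.20, 8.32, 8.34 and 7.93 with FK866 and 9.17, 8.43, 8.74 and 8.67 in mock cells. The groups did not overlap (-0.56, standard error 0.17), and TUBB4B, a beta tubulin, differed by -0.28 (standard error 0.10). In the BCL2 family, which governs mitochondrial apoptosis, 2 of 18 genes were lower and 1 higher. BCL2, which protects from apoptosis, measured 9.13, 9.17, 8.98 and 8.97 with FK866 and 9.75, 9.44, 9.13 and 9.40 in mock cells (-0.37, standard error 0.11), with mock replicate 3 inside the FK866 range. BCL2L1, also protective, differed by -0.32 (standard error 0.12) and BAX, which permeabilizes mitochondria, by 0.30 (standard error 0.11).

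Among 30 immediate early genes and DUSPs 2 were lower, DUSP2, a phosphatase of MAP kinases (-0.62, standard error 0.15), and EGR1, a transcription factor of the growth response (-0.69, standard error 0.27). DNAJB4, a co-chaperone, was higher by 0.37 (standard error 0.09) without overlap. Of 440 ZNF genes, mostly zinc finger transcription factors, 10 were lower and 21 higher at an unadjusted p under 0.05 (5.66% and 2.94% of all genes). Their median was 0.01. In CEM PA compared with CEM RES, the difference of the responses passed the adjusted threshold for MT2A, a metallothionein (-0.27 in CEM RES, 1.64 in CEM PA, limma adjusted p = 0.0378), and for MME, the peptidase CD10 (-0.35 and 1.75, limma adjusted p = 0.0441). Such genes numbered 31, and MT2A and MME were picked after the values were seen. The number was 0 to 1 when a replicate of either line was left out, and CEM PA had 2 FK866 arrays.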
